A study of Mus musculus with 2 samples.

Results

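The genes described here encode the non-collagen part of the extracellular matrix: adhesive glycoproteins, proteoglycans, basement membrane linkers, elastic fibre proteins, the enzymes that crosslink them, and the heparan sulfate proteoglycans of the cell surface. They were taken as a list of 40 genes, chosen with earlier results of these data known. Counts of them set beside the share over all genes are therefore descriptive only. All 40 were found by symbol among the 16387 named genes of the arrays, with Vcan matched through an older symbol. Each had 1 probe. Their levels were measured in liver RNA of MMP-14 knockout mice against wild-type mice on 2 arrays read in 2 colours, 1 array per comparison. One array carried RNA of whole liver pooled from 2 MMP-14 KO livers and 2 wild-type livers. Its stage is P1, postnatal day 1, in the sample labels, whereas the design text places these livers before birth, at E18.5. The sources do not resolve which is right, and the name P1 liver array follows the label. The other carried RNA of sorted cells from fetal liver, labelled E14 and given as E14.5 in the design text, with 100000 cells from 3 MMP-14 KO livers and from 3 wild-type livers. Those cells had been sorted as Dlk+ and negative for CD45, CD71 and Ter119, which selects a population rich in hepatoblasts and leaves out blood cells. No further allele, strain, sex or treatment of the knockout or wild-type mice is given in the sources used here.

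MMP-14 is a metalloproteinase anchored in the cell membrane. It cleaves pericellular matrix, fibronectin, vitronectin, tenascin C, lumican and syndecan-1 among its known substrates, and it activates MMP-2. Fibroblasts, hepatic stellate cells, smooth muscle and endothelium make most interstitial matrix, whereas hepatocytes secrete plasma fibronectin and vitronectin and carry syndecans and, in fetal life, glypican-3 on their surface. Elastic fibres consist of crosslinked elastin on a scaffold of fibrillin microfibrils and are abundant in vessel walls and in lung. The arrays measured RNA only, so cleavage of any matrix protein was not observed.

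On both arrays the knockout was labelled with Cy3 and the wild type with Cy5, with no dye swap and no replicate array. Animal-to-animal error is therefore unknown, no test was possible, and genotype cannot be told apart from any dye preference of a probe. Precision is limited by the number of arrays. A channel counted as detectable when its signal exceeded the mean plus 2 SD of the blank spots, which for P1 was 87.0 in the knockout and 50.5 in the wild-type channel, and for E14 85.1 and 44.3. Ratios are given as log2 (knockout over wild type) after loess normalisation, with an offset of 50 that shrinks the ratios of dim genes. For that reason key genes are also given with the authors' deposited log2 ratio, which has no offset. Knockout signals exceeded wild-type signals by a median factor of 1.65 over all probes of the P1 array and 2.09 over those of the E14 array, so the signals themselves do not give the direction. No matrix gene had a signal recorded as a whole number on either array. Whole numbers were taken as a possible sign of a reading at the top of the scanner range, and saturation itself was not tested. As a check of the labels, the ratio of the deleted gene, Mmp14, was -1.30 for P1, with signals of 104 in the knockout and 161 in the wild type, and -1.13 for E14, with 132 and 131. With local background in normexp these ratios were -0.27 and -0.45, both under 1.5-fold. The sources used here do not say whether its probe lies in the deleted part. Dlk1, the marker used for the sort, had E14 signals of 11869 in the knockout and 4971 in the wild type, and P1 signals of 197 and 128.

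**Figure D1:**
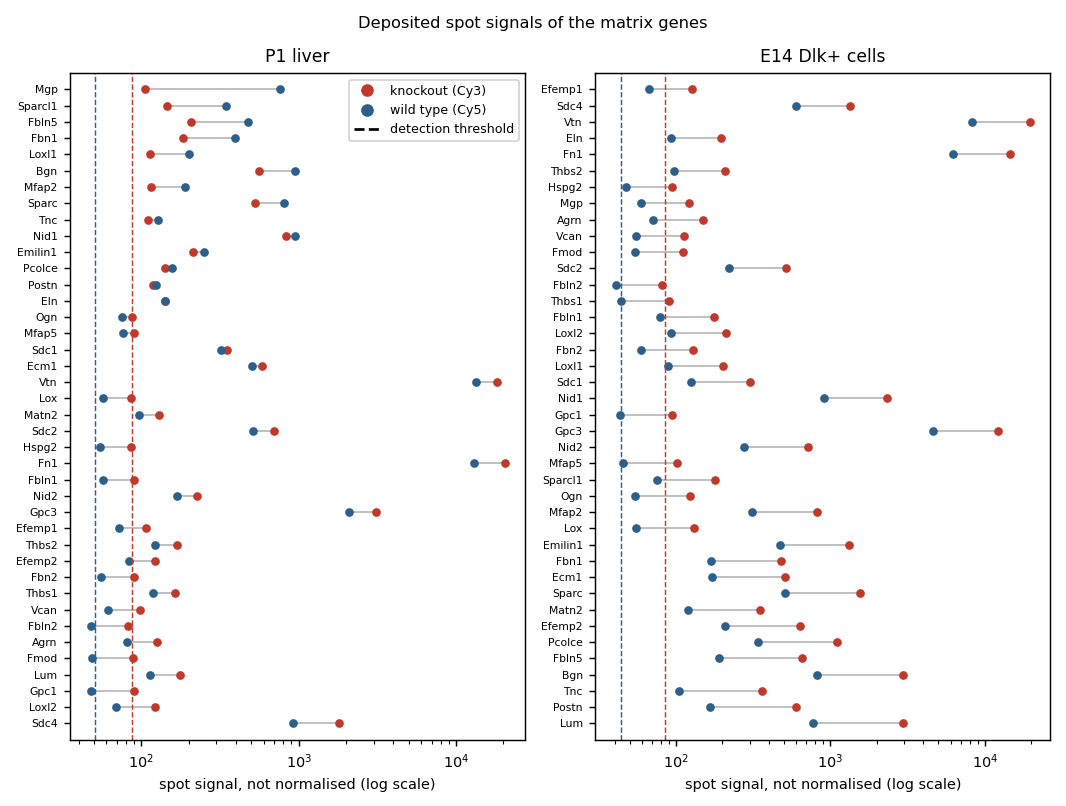
Deposited spot signals (horizontal log axis, arbitrary units, not normalised) of the 40 matrix genes in the knockout (red) and wild-type (blue) channel of the P1 liver array (left) and the E14 Dlk+ array (right), sorted by log2 ratio from lowest at the top. Dashed lines are the detection thresholds of each channel. On the P1 array the wild-type signal exceeds the knockout signal for the genes at the top, such as Mgp at 759.6 against 106 in the knockout, although knockout readings were generally the brighter ones.

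Promoter sequence is shown for 4 of the genes that the results below turn on. Bgn, Fbn1 and Sparc were those at least 2-fold lower on the P1 array with a single start site in the RefSeq table used (GRCm38.p6), and Postn was one of the genes with opposite ratios on the arrays. Each window runs 5′ to 3′ over 250 bases before the start site and 50 from it on, and capitals mark matches to the motifs named below. The Postn window lies at chr3:54360857-54361156 on the plus strand and belongs to the downstream one of 2 listed start sites; the upstream window, with a SMAD motif, is not printed. The Bgn window lies at chrX:73483351-73483650 on the plus strand, that of Fbn1 at chr2:125506389-125506688 on the minus strand and that of Sparc at chr11:55420031-55420330 on the minus strand.
Postn promoter: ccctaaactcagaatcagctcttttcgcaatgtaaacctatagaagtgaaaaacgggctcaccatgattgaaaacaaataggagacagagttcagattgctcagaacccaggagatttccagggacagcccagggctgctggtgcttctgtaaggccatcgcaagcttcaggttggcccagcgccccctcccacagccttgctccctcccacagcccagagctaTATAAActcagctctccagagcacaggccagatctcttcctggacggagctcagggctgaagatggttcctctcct
Bgn promoter: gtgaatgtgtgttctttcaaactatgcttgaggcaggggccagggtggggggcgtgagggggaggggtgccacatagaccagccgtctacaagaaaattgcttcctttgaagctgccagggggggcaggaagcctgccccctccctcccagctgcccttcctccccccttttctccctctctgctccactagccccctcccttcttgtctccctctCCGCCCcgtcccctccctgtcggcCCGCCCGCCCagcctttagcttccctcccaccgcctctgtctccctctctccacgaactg
Fbn1 promoter: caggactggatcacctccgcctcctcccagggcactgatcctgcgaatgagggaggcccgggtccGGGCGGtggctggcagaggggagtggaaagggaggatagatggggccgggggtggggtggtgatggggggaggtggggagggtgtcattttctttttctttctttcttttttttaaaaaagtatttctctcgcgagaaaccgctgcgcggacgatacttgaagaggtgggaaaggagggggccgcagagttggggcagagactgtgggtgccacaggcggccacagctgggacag
Sparc promoter: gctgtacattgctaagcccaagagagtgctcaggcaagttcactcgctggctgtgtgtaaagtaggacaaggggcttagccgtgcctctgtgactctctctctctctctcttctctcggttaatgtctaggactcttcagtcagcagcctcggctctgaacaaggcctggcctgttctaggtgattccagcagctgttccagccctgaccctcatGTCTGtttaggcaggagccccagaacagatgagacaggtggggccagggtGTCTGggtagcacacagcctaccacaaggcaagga
The motifs searched on both strands were the TATA box (TATAAA), the GC box (GGGCGG), the TEAD motif (GGAATG), the AP-1 motif (TGANTCA), the SMAD motif (CAGAC) and the CArG box. Postn had a TATA box that began 26 bases before the start site. Bgn had 3 GC boxes on the opposite strand, 2 of them overlapping, and Fbn1 had 1. Sparc had neither and held 2 SMAD motifs on the opposite strand. No motif was present in all 4 windows. A GC box was present in 66.7% of the 33 promoter windows listed for 25 of the matrix genes, against 35.7% of the 32851 windows searched over all genes. A TATA box was present in 21.2% of the matrix gene windows and 13.6% of all windows, and a SMAD motif in 51.5% and 49.6%. For the TEAD motif the shares were 12.1% and 14.7%, and for the AP-1 motif 6.06% and 7.81%. The CArG box was found in 0 of the 33 windows and in 1.63% of all windows.

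In whole liver labelled P1, matrix genes were mostly lower in the knockout. Of the 40 genes, 35 were detectable in both channels, and 31 of these had a ratio below 0. The median of the 35 was -0.35, against 0.00 for all 12715 named genes detectable in both channels, of which 6411 were below 0. With local background in normexp, 23 of the 35 were below 0 and 12 above, where 50.4% of all genes were above 0. At least 1.5-fold lower were 13 of the 35, where the share over all genes was 4.12%, and at least 2-fold lower were 8, where it was 1.45%. At least 1.5-fold higher were 0 of the 35, against 2.84% of all genes, and 0 were at least 2-fold higher, against 0.558%. With the local background of each spot used in the correction, the split at 1.5-fold was 2 higher and 12 lower of 35, where the shares over all genes were 6.92% and 3.59%. With that background subtracted it was 3 higher and 14 lower of 34, where they were 18.4% and 14.8%. In pooled whole liver, fewer cells of a type, less RNA per cell and RNA of other tissue in a pool cannot be told apart. The lung epithelial markers given below had summed signals of 1733 in the knockout and 45096 in the wild type on this array. What this means for the matrix ratios was not tested.

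The glycoproteins held the lowest ratio of the list. Mgp encodes matrix Gla protein, an inhibitor of calcification in cartilage and vessel walls. On the P1 array its signal was 106 in the knockout and 759.6 in the wild type, a log2 ratio of -3.60, and the authors' deposited table gives -5.36. With local background in normexp it was -2.08. Sparcl1, a matricellular protein of vessels and muscle, had 146 in the knockout and 345 in the wild-type channel, with a ratio of -1.85. Sparc, its collagen-binding relative, had 524 and 802 in those channels and a ratio of -1.21. For these 3 genes the dimmer signal was in the knockout channel, the one that read brighter over the array as a whole.

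Tenascin C and periostin, glycoproteins of growing and remodelling stroma, were lower by less. Tnc had signals of 109.9 in the knockout and 127 in the wild-type channel, with a ratio of -0.85. Postn had 118 and 125 in those channels, with a ratio of -0.70. Both knockout signals lay near the threshold of 87.0, where the offset shrinks the ratio most, and the authors' deposited table gives -1.96 for Tnc and -1.55 for Postn. The other 6 glycoprotein genes lay between -0.35 and -0.07. Among them were the genes of the plasma glycoproteins that hepatocytes secrete: Fn1 (fibronectin) had signals of 20366 in the knockout and 13015 in the wild-type channel and a ratio of -0.13, and Vtn (vitronectin) had 18236 and 13415 and a ratio of -0.33. In the authors' deposited table these 2 stood at 0.21 and 0.01, above 0, and under median centring in place of loess at 0.49 and 0.29, so their direction depends on the scaling. With local background in normexp, Ecm1 stood at 0.53, Thbs2 at 0.15 and Thbs1 at 0.01. Thbs1, a thrombospondin able to activate latent TGF-beta, was at -0.07 and its relative Thbs2 at -0.08. Ecm1, a glycoprotein that binds perlecan, was at -0.35 and Matn2, a matrilin of filamentous networks, at -0.17.

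All 10 elastic fibre genes detectable in both channels of the P1 array had ratios below 0, with a median of -0.53. The largest differences were in genes of microfibrils and of fibre assembly. Fbln5 encodes fibulin-5, which brings elastin onto microfibrils, and had a signal of 208 in the knockout and 477 in the wild-type channel, with a ratio of -1.79. Fbn1, the main microfibril component fibrillin-1, had 183 and 395 in those channels and a ratio of -1.70. Mfap2, a small microfibril-associated glycoprotein, had 116 and 189 and a ratio of -1.34. Emilin1, found at the border of elastin and microfibrils, had 212 and 251 and a ratio of -0.79.

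Elastin itself and other members of the group were less far below 0 in these values, but not all in the values without an offset. Eln had signals of 141.2 in the knockout and 140.4 in the wild-type channel and a ratio of -0.56, and stood at -1.09 in the authors' deposited table. Mfap5, a relative of Mfap2, had 89.8 and 76.0 and a ratio of -0.49, against -2.37 in the authors' deposited table. The remaining 4 genes, Fbln1, Efemp1 (fibulin-3), Efemp2 (fibulin-4) and Fbn2 (fibrillin-2), lay between -0.11 and -0.07, with knockout signals from 89.4 to 121 against the threshold of 87.0. The authors' deposited table gives -0.82 for Fbln1, -0.53 for Fbn2, -0.44 for Efemp1 and -0.32 for Efemp2. Fbln2, the gene of fibulin-2, was not detectable in either channel of either array. With local background in normexp the ratio of Efemp1 was above 0, at 0.13, and with it subtracted 2.05.

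Genes of crosslinking and procollagen processing differed in direction. Loxl1, the lysyl oxidase that acts on elastin, had P1 signals of 113 in the knockout and 202 in the wild type. Its ratio was -1.48, the authors' deposited table gives -2.76, and local background in normexp gave -0.76. Pcolce, which enhances removal of the procollagen C-propeptide, had 141 and 158 in those channels and a ratio of -0.74. Where normexp took the local background it was -0.09, and after plain subtraction -0.33, both under 1.5-fold. Loxl2, which acts on collagen IV, had 123 and 68.6 and a ratio of 0.23. Lox, the founding member of the family, was detectable in the wild-type channel only, near its threshold. It and the other genes with 1 detectable channel on this array (Hspg2, Fmod and Gpc1) had bounds of 1.13-fold or less.

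**Figure D2:**
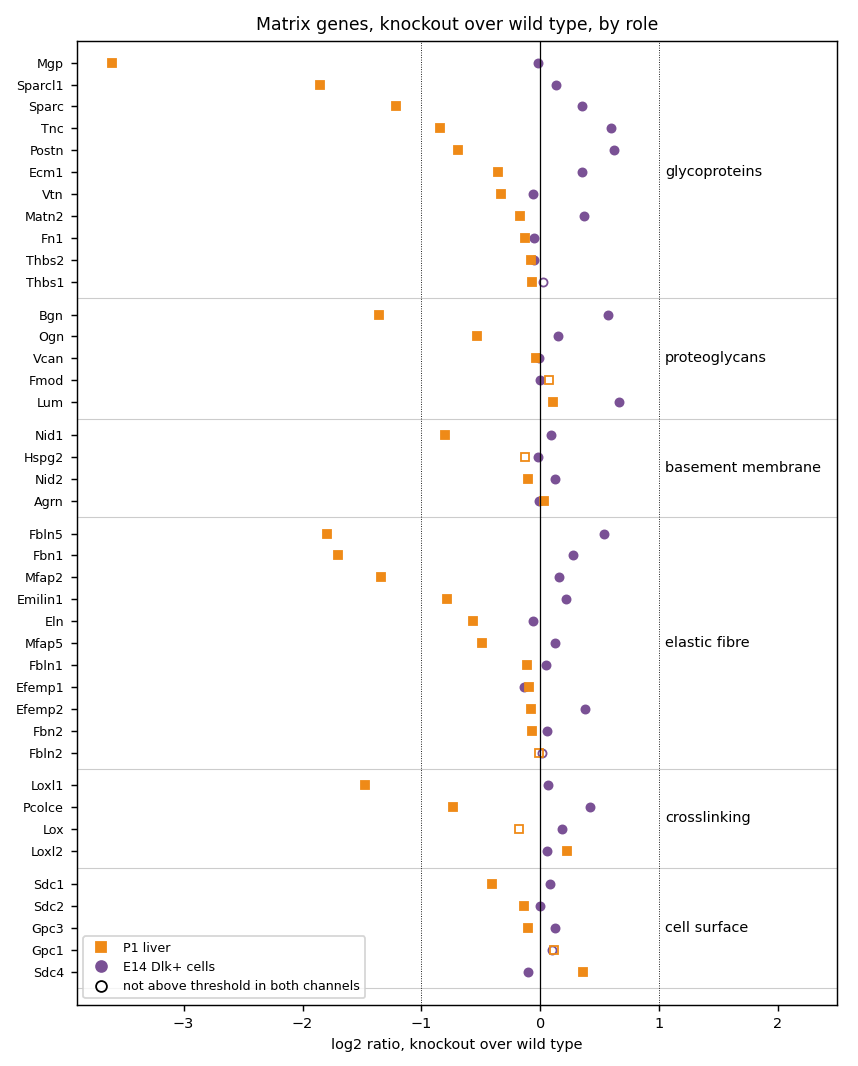
Log2 ratio of knockout over wild type (horizontal axis) for each of the 40 matrix genes, grouped by role, on the P1 liver array (orange squares) and the E14 Dlk+ array (purple circles). Open symbols are genes not detectable in both channels, and dotted lines mark a 2-fold difference. The lowest P1 values are Mgp at -3.60, Sparcl1 at -1.85 and Fbln5 at -1.79, and the highest E14 values are Lum at 0.66 and Postn at 0.62.

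Among the small leucine-rich proteoglycans, which coat collagen fibrils, biglycan and lumican differed on the P1 array. Bgn had a signal of 562 in the knockout and 944 in the wild-type channel and a ratio of -1.36. Lum had 176 and 113 in those channels and a ratio of 0.11. Ogn (osteoglycin) had 87.7 and 75.5, the first of them barely above its threshold of 87.0, and a ratio of -0.53, against -2.83 in the authors' deposited table. Fmod (fibromodulin) was detectable in the knockout channel only, and Vcan, the large hyaluronan-binding proteoglycan, was at -0.04.

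Basement membrane genes were represented by 4 members. Nid1 encodes nidogen-1, a link between laminin and collagen IV, and had signals of 836 in the knockout and 954 in the wild type on P1, with a ratio of -0.80. It was -0.40 under median centring, which is under 1.5-fold. Its relative Nid2 had 225 and 169 and a ratio of -0.11, and Agrn (agrin) had 125 and 80.7 and a ratio of 0.03, with -0.05 in the authors' deposited table. Hspg2 (perlecan) was detectable in the wild-type channel only.

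After loess normalisation, none of the cell surface heparan sulfate proteoglycans detectable in both channels was 1.5-fold different on the P1 array. Sdc4, a syndecan of focal adhesions, had the highest ratio of the whole list at 0.36, with a signal of 1816 in the knockout and 918 in the wild-type channel. Under median centring Sdc4 was at 0.80, past 1.5-fold, and the authors' deposited table gives 0.56. Sdc1, the main syndecan of hepatocytes, had 351 and 319 and a ratio of -0.40. Sdc2 was at -0.14 and Gpc3, the glypican of fetal liver, at -0.10, and both were above 0 under median centring (0.21 and 0.40). Gpc1 was detectable in the knockout channel only.

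Markers of other cells also differed between the channels of the P1 array. All 16 lung epithelial markers were detectable in the wild-type channel and 10 of 16 in the knockout channel, with summed signals of 1733 in the knockout and 45096 in the wild type, and the 10 measured in both had a median ratio of -4.83. The 8 lung stroma markers detectable in both channels had a median of -0.71, from -4.12 (Mfap4) to -0.16 (Tbx5). The 3 smooth muscle markers had a median of -1.54 and the 7 endothelial markers -0.67. Their part in the lower matrix ratios was not tested.

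Markers of hepatic stellate cells were divided on the P1 array. The 16 markers had a median of -0.10 with 12 below 0. Their summed signals were 4914 in the knockout and 5077 in the wild type, where the sums over all named genes were 8874000 and 5986010. The stellate cell transcription factor gene Lhx2 stood at 0.26, Colec10 at 0.13, Colec11 at -0.10 and Dcn, a small leucine-rich proteoglycan gene, at -0.14. With local background in normexp they stood, in that order, at -0.03, 0.22, 0.56 and -0.32. Under median centring they stood at 0.42, 0.35, 0.14 and 0.32. The signs of Lhx2, Colec11 and Dcn thus depend on the setting. The fibrillar collagen genes of the same list were lower, Col3a1 at -1.93 and Col1a2 at -1.82. The 7 hepatocyte and hepatoblast markers had a median of -1.05, with Alb, Ttr, Apoa1 and Fgb between -1.65 and -1.05, and Dlk1, Afp and Hnf4a between 0.11 and 0.31. Alb, Ttr, Apoa1, Fgb and Afp each had a signal recorded as a whole number. Under median centring the median of the 7 was -0.38, where that of all genes was 0.05.

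**Figure D3:**
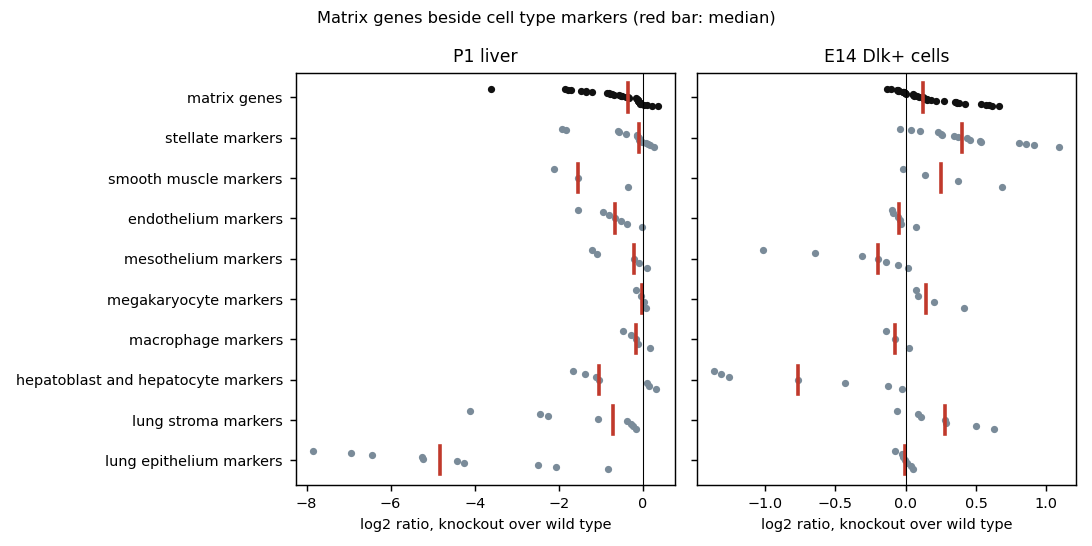
Log2 ratio of knockout over wild type (horizontal axis, scaled separately in each panel) for the matrix genes (black) and for markers of cell types (grey) detectable in both channels, on the P1 liver array (left) and the E14 Dlk+ array (right). Red bars are medians. On the P1 array the matrix genes have a median of -0.35, lung epithelial markers -4.83 and stellate markers -0.10, and on the E14 array matrix genes have 0.12 and stellate markers 0.40.

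In the sorted E14 Dlk+ cells the matrix genes lay mostly above 0, by small amounts. Of the 40 genes, 37 were detectable in both channels and 26 of these had a ratio above 0, against 53.1% of all genes. The median of the 37 was 0.12, against 0.01 for all 12705 named genes. With median centring instead of loess it was 0.59, where that of all genes was 0.28. At least 1.5-fold higher were 3 genes, against 0.307% of all genes, and none was at least 1.5-fold lower, against 0.22%. Likewise 0 were 2-fold higher, against 0.0157% of all genes, and 0 were 2-fold lower, against 0.0945%. The lowest of the 37 was Efemp1 at -0.13. With local background in normexp, 4 were at least 1.5-fold higher, against 3.83% of all genes. These were Pcolce at 1.23, Gpc3 at 0.90, Vtn at 0.87 and Bgn at 0.59.

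The 3 genes first counted as at least 1.5-fold higher were lumican, periostin and tenascin C, all products of stroma. On the E14 array Lum had signals of 2944 in the knockout and 768 in the wild type, a log2 ratio of 0.66. Postn had 603 and 167 in those channels and a ratio of 0.62. Tnc had 360.5 and 105 and a ratio of 0.59. With the local background in normexp these ratios were 0.55, 0.48 and 0.28, and after its subtraction 0.51, 0.53 and 0.38, so that none reached 1.5-fold in either. In the authors' deposited table the ratios were 0.63 for Lum, 0.72 for Postn and 0.82 for Tnc.

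Just under 1.5-fold on the E14 array were Bgn and Fbln5. Bgn had a signal of 2955 in the knockout and 822 in the wild-type channel and a ratio of 0.57. Fbln5 had 654 and 190.5 and a ratio of 0.54. Next came Pcolce at 0.42, Efemp2 at 0.38, Matn2 at 0.37 and Sparc and Ecm1 at 0.35. With local background in normexp, Pcolce was at 1.23.

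The role groups of the E14 array differed little in their medians. Glycoproteins had a median of 0.24 over 10 genes, proteoglycans 0.15 over 5, elastic fibre genes 0.14 over 10 and crosslinking genes 0.12 over 4. The basement membrane and cell surface groups had 0.04 each, over 4 genes each. In the authors' deposited table the group medians ran from 0.005 (cell surface) to 0.53 (proteoglycans). Under median centring they ran from 0.13 (proteoglycans) to 0.75 (glycoproteins), so spread and order depend on the setting. Fn1 and Vtn, bright products of hepatic cells, were both at -0.06, and at 0.69 and 0.70 under median centring, so their sign depends on the scaling. Gpc3 was at 0.12, and at 0.90, 0.94 and 0.87 with local background in normexp, with it subtracted and with median centring, all past 1.5-fold. Sdc4 was at -0.10, and at 0.22, 0.16 and 0.59 under those settings, with its sign turned. Thbs1 and Gpc1 were detectable in the knockout channel only, with bounds of 1.07-fold or less.

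Stromal markers differed beside these genes in the sorted cells. The 16 stellate markers had a median of 0.40 on the E14 array with 15 above 0, from -0.04 (Col1a1) to 1.09 (Colec10), and summed signals of 24598 in the knockout and 7308 in the wild type. The sum over all named genes was 10082600 in the knockout and 4616320 in the wild type. The 4 smooth muscle markers had a median of 0.25, with Tagln at 0.68, and the 7 lung stroma markers detectable in both channels 0.28, with 6 above 0 and Tcf21 at 0.63. The 7 mesothelial markers had a median of -0.20, and the 6 endothelial markers -0.05. Their part in the matrix ratios was not tested. The 7 hepatoblast and hepatocyte markers were detectable in both channels and all below 0, with a median of -0.76 and 4 at least 1.5-fold lower. Those 4 were Ttr at -1.36, Alb at -1.31, Afp at -1.26 and Apoa1 at -0.76, each with a signal recorded as a whole number. Hnf4a was at -0.12 and Dlk1 at -0.03. Under median centring the median of these hepatic markers was -0.003, where that of all genes was 0.28. Dlk1 then stood at 0.72, Hnf4a at 0.59 and Fgb at 0.32. Apoa1 was at -0.003, and Ttr, Alb and Afp at -0.60, -0.54 and -0.49, so several signs depend on the scaling. Of the 16 lung epithelial markers, 7 were detectable in both E14 channels, with a median of -0.01, 2 in 1 channel and 7 in neither, Sftpb, Scgb1a1 and Nkx2-1 among the last.

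Matrix gene ratios were mostly lower on the P1 than on the E14 array. Over the 34 genes detectable in both channels of both arrays, the P1 ratio minus the E14 ratio had a median of -0.55. The median was 0.00 for all 12005 genes so detectable. The difference was below 0 for 30 of the 34, against 50.7% of all genes. At least 2-fold lower on P1 than on E14 were 12 of the 34, against 1.77% of all genes, and none was 2-fold higher, against 0.466%. A dye effect of a probe that is equal on both arrays cancels in this difference. The P1 array holds whole liver and the E14 array sorted cells of an earlier stage, so tissue and stage cannot be told apart, and with 1 array each the difference was not tested.

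The largest of these differences was -3.59, for Mgp, followed by -2.33 for Fbln5, -1.98 for Sparcl1 and Fbn1, and -1.93 for Bgn. The E14 ratio of Mgp was -0.02. Fbln5 and Bgn had opposite ratios on the arrays, -1.79 and 0.54 for Fbln5 and -1.36 and 0.57 for Bgn. At the other end were Sdc4 at 0.46, Loxl2 at 0.17, Agrn at 0.04, Efemp1 at 0.03 and Vcan at -0.03. A ratio above 0 on E14 and below 0 on P1 was found for 23 of the 34 genes, against 23.7% of all genes.

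**Figure D4:**
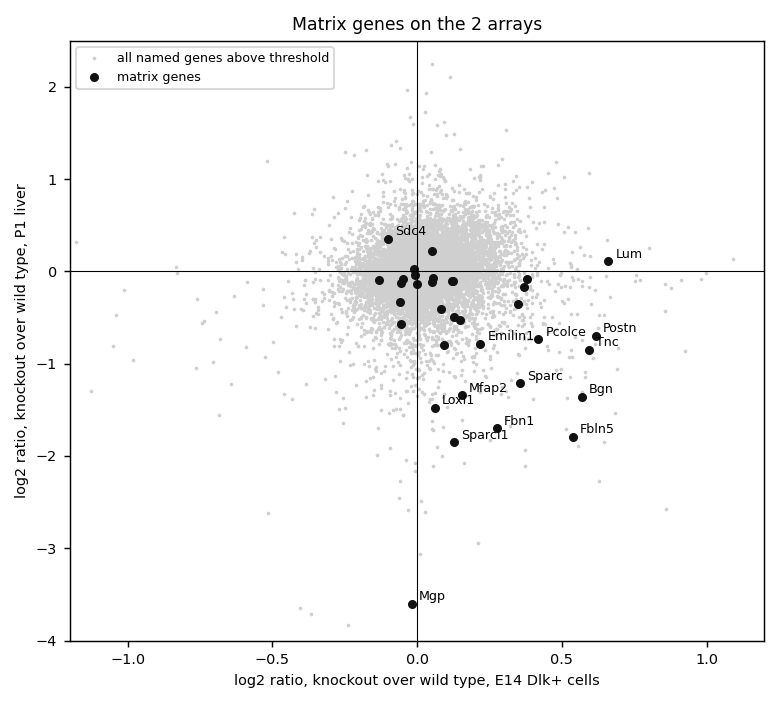
Log2 ratio of knockout over wild type on the P1 liver array (vertical axis) against that on the E14 Dlk+ array (horizontal axis) for matrix genes (black) and all named genes (grey) detectable in both channels of both arrays. Genes beyond the axes are not drawn. Most of the 34 matrix genes lie right of 0 and below 0, with Mgp lowest at -3.60 on P1 and Lum highest at 0.66 on E14.

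Levels of the same gene were also set side by side over the 4 RNA pools, on a log2 scale after normalisation between arrays. In the knockout, 15 of the 34 genes were at least 2-fold lower in P1 liver than in E14 Dlk+ cells, where the share over all genes was 6.31%, and none was 2-fold higher, where it was 6.16%. In the wild type, 7 were at least 2-fold lower in P1 liver, against 4.82% of all genes, and 4 were 2-fold higher, against 6.66%. The median difference was -0.69 in the knockout and -0.09 in the wild type, beside -0.06 for all genes in each.

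For Mgp and Sparcl1 the arrays differed mainly in the wild-type pools. The level of Mgp was 6.17 in knockout and 9.78 in wild-type P1 liver, and 6.37 and 6.39 in knockout and wild-type E14 cells. Sparcl1 had 6.78 in knockout and 8.63 in wild-type P1 liver, and 6.92 and 6.79 in the E14 cells. The wild-type P1 pool thus stood apart from the other 3 pools for both genes. For Mfap2 the level in P1 liver minus that in E14 cells was -2.62 in the knockout and -1.12 in the wild type.

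Lum was lower in P1 liver than in E14 cells in both genotypes. Its level was 7.13 in knockout and 7.02 in wild-type P1 liver, against 10.84 and 10.18 in knockout and wild-type E14 cells, so that P1 minus E14 was -3.71 in the knockout and -3.16 in the wild type. Bgn had 8.87 in knockout and 10.23 in wild-type P1 liver, and 10.85 and 10.28 in the E14 cells. Its wild-type level was nearly equal in both kinds of RNA, at a difference of -0.05, and its knockout level differed by -1.98. Gpc3 was lower in P1 liver, with P1 minus E14 at -1.72 in the knockout and -1.49 in the wild type, and Sdc1 was higher, at 0.55 and 1.04.

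**Figure D5:**
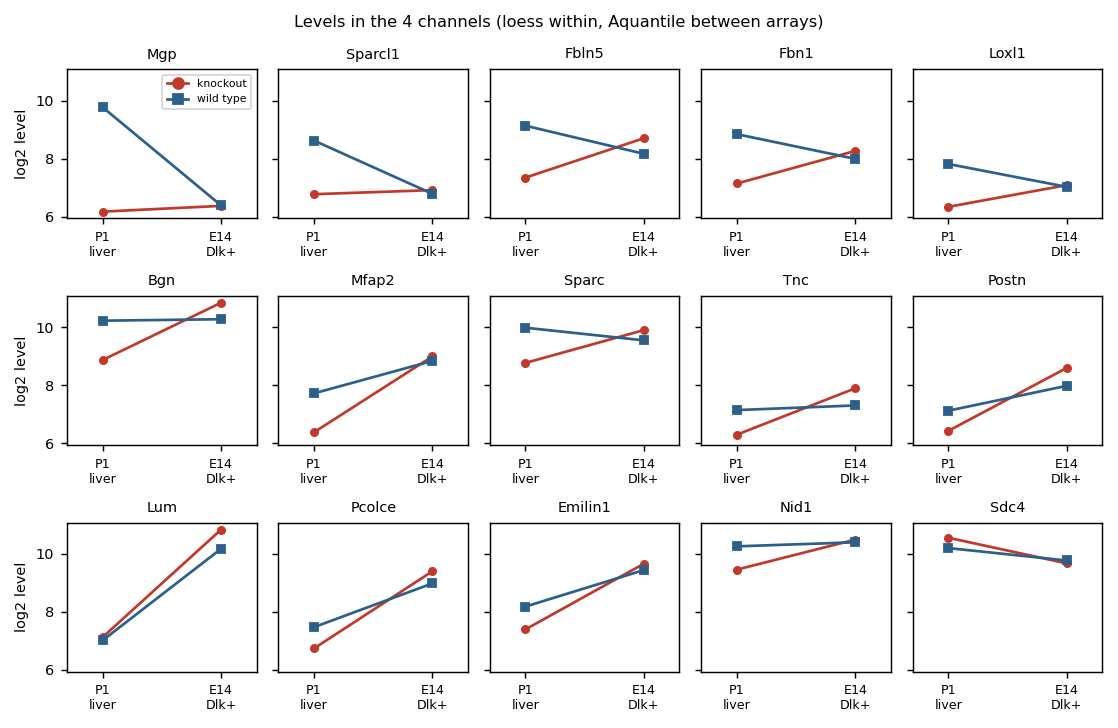
Level of 15 matrix genes (vertical axis, log2 after loess within and Aquantile between arrays) in knockout (red circles) and wild-type (blue squares) RNA of P1 liver (left point) and E14 Dlk+ cells (right point). Each point is 1 RNA pool, and lines join the pools of a genotype. Mgp is high in wild-type P1 liver only, at 9.78, and Lum is lower in P1 liver in both genotypes.

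Other genes of the same families, from a list of 83 on the array, were also mostly below 0 on the P1 array. Of these, 57 were detectable in both channels, with a median of -0.11, and 38 were below 0, against 6411 of the 12715 named genes. Of the 57, at least 1.5-fold lower were 12, against 4.12% of all genes. At least 2-fold lower were 5, against 1.45%, and 1.5-fold higher 0, against 2.84%. The lowest was Mfap4, a microfibril-associated gene that is also in the lung stroma list, with a signal of 93.3 in the knockout and 916 in the wild-type channel and a ratio of -4.12. It was followed by Dpt (dermatopontin) at -1.65, Tgfbi at -1.59, the matricellular gene Ccn1 at -1.30, Pcolce2 at -1.14 and Thbs3 at -0.93. Aspn (asporin), a small leucine-rich proteoglycan gene, had signals of 86.5 in the knockout, not above the threshold, and 164 in the wild type. Its ratio was -1.67, and -1.29 with local background in normexp. The highest were Smoc1 at 0.32, Creld1 at 0.23, Prg4 at 0.20, Matn1 at 0.17, Matn4 at 0.13 and Tnr at 0.11. With local background in normexp, Igfbp7 moved from -0.86 to 0.84, Egflam from -0.78 to 0.11 and Prg2 from -0.65 to 0.13. The others of the 12 stayed below 0. Under that setting Igfbp7, Srgn at 1.45, Mfap3 at 0.67, Matn4 at 0.63 and Smoc1 at 0.62 were past 1.5-fold higher. The share over all genes was then 6.92%.

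On the E14 array 55 of these related genes were detectable in both channels, with a median of 0.01, against 0.01 for all genes. The 2 at least 1.5-fold higher, where the share over all genes was 0.307%, were Igfbp7 at 0.93, with a signal of 1741 in the knockout and 379 in the wild-type channel, and Dcn (decorin) at 0.86, with 3557 and 810.0. Ccn1 at 0.57, Prelp at 0.51, Loxl3 at 0.39 and Svep1 at 0.36 followed. The lowest were Matn4 at -0.21, Frem2 at -0.17, Pcolce2 at -0.15, Smoc1 at -0.13, Crispld2 at -0.11 and Abi3bp at -0.09. Decorin, lumican and biglycan, related proteoglycans of collagen fibrils, were thus all among the higher genes of the E14 knockout, and on the P1 array they stood at -0.14, 0.11 and -1.36.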

How the data were processed

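Amplified amino allyl RNA was coupled to Cy5 (wild type) or Cy3 (knockout), per the labels. Scanner files deposited for each array give median spot and local background intensity of both channels, scanned at 3 gains and not normalised, per the file headers. The authors' deposited value table gives log2 ratios with the knockout on top; against the scanner values they equalled the ratio after subtraction of the blank mean, centred on the array median (Pearson correlation 0.999995 on the E14 array and 1 on the P1 array, to the digits written), with column medians of 0.00, so scale, centring and direction are known. Ratios were computed here with limma (version 3.58.1, under R 4.3.3): normexp on the spot signal with an offset of 50, loess within the array with control spots at weight 0, and averaging of spots and probes. Blank spots were trimmed by 5 percent at each end. Of 23473 probes, 16631 had 1 gene symbol and none had several; 3947 symbols were updated with RefSeq. Levels over the 4 pools used Aquantile. Normalisation was tested on simulated data. Recovery of known folds was scored only for probes of brighter wild-type signal, so dim genes were not covered. Genes are called by fold, at 1.5 and 2, with no test. The members, gene lists and settings were chosen with earlier results of these data known. Genes described singly were those at least 1.5-fold different on either array, those with a bound of that size and the 5 highest and 5 lowest P1 minus E14 differences; other members are given by value or range, and of the related genes the 6 highest and 6 lowest per array. The files name no genome build.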

Additional observations from a re-analysis of the deposited data

Results flagged for a closer look

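Postn and Tnc had knockout levels over 1.5-fold below wild type in P1 liver and over 1.5-fold above it in E14 Dlk+ cells, opposite directions under the same contrast. The P1 ratio minus the E14 ratio was -1.31 for Postn (-0.70 and 0.62) and -1.44 for Tnc (-0.85 and 0.59). With 1 array per comparison the difference was not tested. With the local background used in normexp it was -1.07 for Postn and -0.93 for Tnc. The E14 ratios were then 0.48 for Postn and 0.28 for Tnc, both under 1.5-fold, as they were with that background subtracted (0.53 and 0.38). The P1 knockout signals, 118 for Postn and 109.9 for Tnc, lay near the threshold of 87.0. Stellate markers had a median of -0.10 for P1 and 0.40 for E14, and lung stroma markers -0.71 and 0.28, and their part in these differences was not tested.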

How the results depend on the processing

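No paired analysis was possible because each comparison has 1 array, and for the same reason no replicate could be left out. A median counted as moved when it shifted by more than the median SD between probes of a gene, 0.12 for P1 and 0.069 for E14. Of the recomputed P1 ratios of the 13 genes at least 1.5-fold lower, under the 5 alternatives that can alter a single gene's ratio, 49 moved by more than this, 16 did not and 0 changed sign. Of the 13 genes 11 stayed at least 1.5-fold lower in all 5; the exceptions were Nid1 and Pcolce. Of the recomputed E14 ratios of the 3 higher genes 13 moved, 2 did not and 0 changed sign, but all 3 genes were under 1.5-fold where the local background was used.

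On the P1 array the matrix median was -0.092 with the local background in normexp, -0.15 with median centring (all genes 0.05), -0.53 in the authors' deposited table and -0.17 with no detection filter. Members at least 1.5-fold higher numbered 2 with the local background in normexp, 3 with it subtracted and 1 (Sdc4) with median centring. The shares over all genes were 6.92%, 18.4% and 10.2%. Under the first 2 settings 1 was 2-fold higher, against 2.69% and 8.82% of all genes. With normexp that was Fn1 at 6.82, whose wild-type local background of 13310 exceeded its signal of 13015. Members at least 2-fold lower numbered 14 with the local background subtracted, 13 with an offset of 10 and 15 in the authors' deposited table, where the shares over all genes were 5.58%, 2.74% and 5.03%. On the E14 array the median was 0.31 with the local background subtracted and 0.59 with median centring. Members at least 1.5-fold higher numbered 7, 19 and 6 with the background subtracted, with median centring and in the authors' deposited table, where the shares over all genes were 14.2%, 24.8% and 5.38%. The 25th intensity percentile filter moved none of these counts and medians beyond the stated limits. Leaving out genes with whole-number signals cannot move them, since no matrix gene has such a signal. Taking the brightest probe cannot move them either, since each matrix gene has 1 probe. Signals near the thresholds limit Tnc, Postn, Ogn, Mfap5 and most genes of low signal. The causes were not tested.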
